A study of Mus musculus with 2 samples.

Results

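The genes described here are 34 genes of the hypoxia response, chosen by name: those whose symbol in the deposited gene table equals an entry of a fixed list of hypoxia-inducible factor (HIF) subunits, oxygen sensors and HIF target genes. All 34 were found among the 32285 genes of the tables. They are described across the cell types of mouse islets, among beta cells, and between a saline library and a library labelled CDS. Single islet cells were sequenced in droplets, where each captured RNA molecule is counted once as a unique molecular identifier (UMI). Both groups were DIO (diet-induced obese) mice, given saline or 10 mg/kg CDS for 2 weeks before the islets were isolated. The islets were freed with collagenase injected through the pancreatic duct and picked under a stereomicroscope. The series title concerns an antagonist of the alpha2A-adrenergic receptor that acts outside the brain, and nothing in the labels ties CDS to that compound. Strain, sex, age, the diet, and the number of mice behind each library are not given in the labels. Each group is 1 library.

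Cells sense oxygen mainly through HIF. Its alpha subunits, HIF-1alpha (gene Hif1a) and HIF-2alpha (Epas1), are hydroxylated by the prolyl hydroxylases encoded by Egln1, Egln2 and Egln3 when oxygen is present, recognised by the VHL protein and degraded, while factor inhibiting HIF (Hif1an) hydroxylates another site and lowers their activity. When oxygen falls the alpha subunits persist, pair with the subunit encoded by Arnt, and bind short DNA elements near genes of glycolysis, mitochondrial turnover, blood vessel growth and matrix synthesis. Because this control acts on the protein, the RNA of Hif1a need not change when its targets do. In the islet, beta cells depend on mitochondrial respiration to couple glucose to insulin release, and ARNT is a known factor of normal beta cell function.

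The sequences that carry this response are the HIF-binding elements in target promoters, and 5 windows are shown here as examples. They belong to genes whose RNA was higher after CDS in every class in which it was measured, and these 5 were picked after their values and matches were seen. Each window runs from 250 bases before to 50 bases after the RefSeq start of the gene on build GRCm38.p6 (mm10), on the gene's own strand, 5′ to 3′. Capitals mark the element core, ACGTG or GCGTG, on either strand, so CACGT and CACGC are also in capitals. Overlapping matches count separately, so CACGTG counts as 2.
Bnip3, chr7:138909457-138909756, minus strand: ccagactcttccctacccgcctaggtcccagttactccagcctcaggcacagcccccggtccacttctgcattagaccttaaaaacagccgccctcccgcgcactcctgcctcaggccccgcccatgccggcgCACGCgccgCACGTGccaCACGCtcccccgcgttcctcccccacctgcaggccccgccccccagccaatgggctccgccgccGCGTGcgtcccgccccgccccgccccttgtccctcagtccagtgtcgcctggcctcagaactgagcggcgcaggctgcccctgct
Fam162a, chr16:36071512-36071811, minus strand: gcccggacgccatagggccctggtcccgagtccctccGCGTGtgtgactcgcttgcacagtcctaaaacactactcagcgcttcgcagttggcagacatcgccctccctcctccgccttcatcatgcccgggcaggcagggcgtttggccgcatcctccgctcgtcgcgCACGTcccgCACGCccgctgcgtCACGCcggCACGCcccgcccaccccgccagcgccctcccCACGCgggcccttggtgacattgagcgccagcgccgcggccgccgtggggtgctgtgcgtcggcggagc
Egln1, chr8:124949205-124949504, minus strand: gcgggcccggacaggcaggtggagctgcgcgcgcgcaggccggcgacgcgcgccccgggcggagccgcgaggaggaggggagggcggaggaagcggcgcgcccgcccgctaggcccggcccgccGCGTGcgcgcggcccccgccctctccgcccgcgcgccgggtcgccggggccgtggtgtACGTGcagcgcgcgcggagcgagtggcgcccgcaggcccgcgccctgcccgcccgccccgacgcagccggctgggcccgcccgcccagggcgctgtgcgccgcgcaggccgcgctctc
Ankrd37, chr8:45999801-46000100, minus strand: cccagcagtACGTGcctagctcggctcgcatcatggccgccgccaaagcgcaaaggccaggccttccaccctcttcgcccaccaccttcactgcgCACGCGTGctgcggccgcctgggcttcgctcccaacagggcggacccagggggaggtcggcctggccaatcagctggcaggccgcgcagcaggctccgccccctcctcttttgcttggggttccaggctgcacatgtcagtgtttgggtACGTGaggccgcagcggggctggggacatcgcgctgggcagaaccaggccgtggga
Higd1a, chr9:121857747-121858046, minus strand: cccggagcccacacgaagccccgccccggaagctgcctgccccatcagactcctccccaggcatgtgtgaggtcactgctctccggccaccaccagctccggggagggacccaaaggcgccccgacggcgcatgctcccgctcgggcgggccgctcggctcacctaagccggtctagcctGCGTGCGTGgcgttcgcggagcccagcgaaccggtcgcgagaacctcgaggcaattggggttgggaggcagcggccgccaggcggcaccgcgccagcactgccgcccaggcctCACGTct

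The Bnip3 window held 5 matches, Fam162a 6, Ankrd37 4, Higd1a 3 and Egln1 2. In all 11 genes were higher in every class in which they were measured, and 10 of them had a window. Adm was measured in 2 classes, Higd1a, Ak4 and P4ha2 in 4, and the other 7 in all 5. Of all genes measured in all 5 classes 7.76% were higher in each. The share of all genes higher in every class measured, however many, was not computed. The windows not shown held 4 matches for P4ha2, 2 each for Ak4, Adm and Jmjd6 and 1 for Mif, and Bnip3l had no window. A window was found for 27 of the 34 genes, and 22 of these 27 (81.5%) held at least 1 match. Over all 32851 RefSeq windows of the same length, 43.8% held one. The letters are rich in G and C, and so are these promoters: among windows of at least 60% GC, 16 of 17 of the hypoxia response genes (94.1%) and 69.2% of all such windows held a match. No match was found for Vhl, Hif1an, Car12 and Gbe1. Of the 3 windows of Mxi1, 2 held a match, but not the 1 counted here, which lay nearest the annotated gene start. A match is a description of letters and not evidence of binding.

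There were 12453 saline barcodes with 124343325 UMIs in total, and 7268 CDS barcodes with 141191447. After filters on genes, UMIs and mitochondrial share and removal of called doublets, 10977 saline and 6159 CDS cells remained, with a median of 9794 and 19069 UMIs. The libraries shared 25 barcodes, 18 of them among kept cells. The labels call the cells islet b cells, but by the share of hormone RNA and by markers of other cells only 44.8% of kept saline cells and 58.6% of kept CDS cells were beta cells. The other classes with at least 100 cells in each library were alpha (795 saline and 905 CDS cells), delta (461 and 403), endothelial (315 and 238) and macrophage (133 and 134). B and T cells were far more frequent in the saline library (1070 and 1285 cells) than in the CDS library (31 and 17). Of the cells of these 5 classes, 87.4% to 100%, by library, fell in clusters named for the same class. The clusters were named by the same markers on the same counts, so this agreement is not an independent check of the gate. Of the beta-gated cells, 4919 were saline and 3609 CDS. Insulin RNA was a median of 34.5% and 40.4% of their UMIs, glucagon RNA 0.0310% and 0.0433% and somatostatin RNA 0.0129% and 0.0117%, and 144 saline and 138 CDS cells lay within 20% of the insulin limit of 15%. Insulin RNA was also 1.44% to 2.15% of UMIs in the median cell of the 4 other classes, which is a measure of free RNA in the droplets. The beta class did not sit in the same clusters in both libraries: 1 cluster held 2231 saline and 266 CDS cells and another 200 saline and 1217 CDS cells.

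Levels are given as CPM, the share that a gene has of the class's UMIs scaled to a fixed total, with hormone, digestive enzyme and mitochondrially encoded genes left out of the total and TMM scaling between the 2 libraries of a class. Classes were compared with beta cells by edgeR's quasi-likelihood test on the summed UMIs, with the library as a term. Here the libraries are the 2 replicates of each class, so the spread also holds any difference between treatments that varies by class. The p-values are adjusted over all 14974 genes tested, and the fitted folds use scaling across all classes, whereas the printed levels are scaled within a class. On the log2 scale the fitted fold therefore differs from the ratio of printed levels by -0.08 to 0.04 in alpha and delta cells and by 0.01 and 0.17 in saline and CDS endothelial cells. In macrophages it lies above that ratio by 0.32 in the saline and 0.45 in the CDS library. Of the 34 genes 32 were tested. Car12 and Stc2 were too low.

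Islet endothelial cells had the broadest expression of the hypoxia response relative to beta cells, and the other endocrine cells the narrowest. In endothelial cells 21 of 32 genes were higher than in beta cells and 3 lower, where 30.2% of all genes were higher and 39.4% lower. In macrophages 16 were higher and 6 lower, against 25.8% and 34.4% of all genes. In alpha cells 7 were higher and 17 lower, against 22.3% and 27.5% of all genes. In delta cells 1 was higher and 18 lower, against 17.9% and 22.1% of all genes. The median log2 fold over the 32 genes was -0.44 in alpha, -0.57 in delta, 0.66 in endothelial cells and 0.42 in macrophages, where the median of all genes was -0.06, -0.07, -0.27 and -0.29. The macrophage split depended on the scaling. With plain CPM 9 genes were higher and 11 lower there, all genes moved to 19.5% higher and 46.8% lower, and the median of all genes moved to -0.69. The fits without the library term, in which the difference between libraries stays in the spread, called fewer genes in each class and fewer of all genes too. They called 4 of the 32 higher and 6 lower in alpha cells (10.0% and 12.7% of all genes), 1 and 8 in delta (8.98% and 9.10%), 14 and 0 in endothelial cells (24.7% and 33.3%) and 8 and 4 in macrophages (21.0% and 28.6%).

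**Figure D1:**
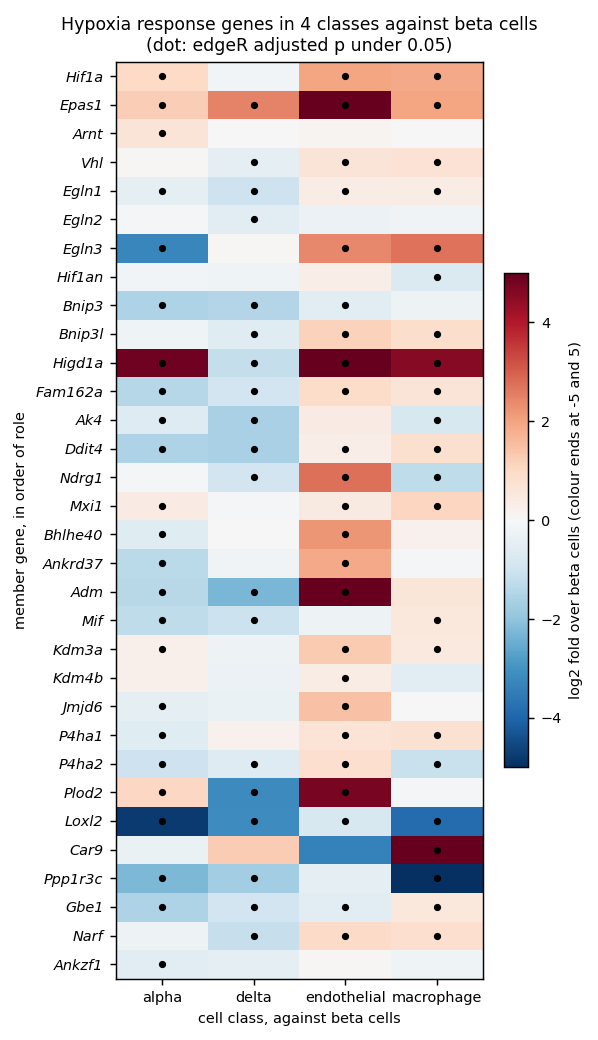
Heat map of the fitted log2 fold of each class over beta cells for the 32 genes tested, in order of role from transcription factors at the top. Red is higher than in beta cells and blue lower, the colour ends at -5 and 5, and a dot marks an edgeR adjusted p under 0.05. The endothelial column is mostly red (21 higher) and the alpha and delta columns mostly blue (17 and 18 lower).

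Among the transcription factors, Epas1 was the gene that set endothelial cells apart. Its level was 353 CPM in saline and 369 CPM in CDS endothelial cells, and 1.16 and 0.788 CPM in beta cells, a log2 fold of 8.60 (8.25 in the saline and 9.04 in the CDS library, edgeR adjusted p = 3.3e-16). Alpha, delta and macrophage sums held 25 or fewer UMIs of Epas1 in either library, and on these counts it still passed the test as higher than in beta cells in all 3. Hif1a was measured in every class. It stood at 89.0 and 92.6 CPM in saline and CDS beta cells, 175 and 189 in alpha, 83.0 and 84.1 in delta, 367 and 297 in endothelial cells and 295 and 222 in macrophages. Beta and delta cells therefore shared the lowest level and did not pass the test against each other (log2 -0.14, edgeR adjusted p = 0.44). The fold over beta cells was 0.99 on the log2 scale in alpha cells (edgeR adjusted p = 5.0e-06), 1.96 in endothelial cells (edgeR adjusted p = 8.8e-10) and 1.88 in macrophages (edgeR adjusted p = 4.8e-09). Arnt, the partner subunit, was at 85.5 and 66.2 CPM in beta cells and 123 and 112 CPM in alpha cells, and only the alpha difference passed the test (log2 0.63, edgeR adjusted p = 0.00037).

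The oxygen sensors differed among themselves. Egln3, itself a HIF target, stood at 5.56 and 6.73 CPM in beta cells, 30.9 and 29.3 in endothelial cells and 31.1 and 30.3 in macrophages, a log2 fold over beta cells of 2.39 (edgeR adjusted p = 1.8e-07) and 2.70 (edgeR adjusted p = 3.8e-07). Alpha cells held 3 and 6 UMIs of it. Delta cells did not differ from beta cells beyond the test (log2 0.06, edgeR adjusted p = 0.89). Egln1, the main prolyl hydroxylase, was lower than in beta cells in delta cells (54.2 and 72.5 against 87.6 and 183 CPM, log2 -1.05, edgeR adjusted p = 8.1e-06). The same gene was lower in alpha cells by 0.43 and higher in endothelial cells by 0.39 and in macrophages by 0.36 on the log2 scale. With plain CPM the macrophage fold of Egln1 was -0.037 and the endothelial fold was 0.29 and no longer passed (edgeR adjusted p = 0.052). Egln2 was lower in delta cells (log2 -0.55) and did not pass in the other classes. Vhl, the recognition subunit, was lower in delta cells (log2 -0.47) and higher in endothelial cells (log2 0.65) and macrophages (log2 0.73). Hif1an passed the test only in macrophages, with 8 and 19 UMIs.

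Of the mitochondrial genes, Higd1a differed most between alpha and beta cells. Higd1a (chr9:121848563-121858362, minus strand) encodes a small protein of the inner mitochondrial membrane that associates with the respiratory chain. Its level was 5.52 CPM in saline and 15.2 CPM in CDS beta cells, but 190 and 385 CPM in alpha cells, 262 and 678 CPM in endothelial cells and 121 and 235 CPM in macrophages. The log2 fold over beta cells was 4.85 in alpha cells (5.04 and 4.70 by library, edgeR adjusted p = 9.7e-13), 5.61 in endothelial cells (edgeR adjusted p = 6.3e-14) and 4.55 in macrophages (edgeR adjusted p = 3.4e-12). Every library of these 3 classes lay above both beta sums. With cells thinned to 3000 UMIs, 41.7% of saline and 54.0% of CDS alpha cells held a Higd1a UMI, against 1.57% and 3.36% of beta cells and 0.460% and 2.20% of delta cells. Unthinned, the shares were 65.5% and 81.7% in alpha and 4.29% and 11.2% in beta cells, at a median of 8197 and 11620 UMIs per alpha cell and 15834 and 27569 per beta cell. The exact 95% interval of the thinned share was 1.24% to 1.97% in saline and 2.78% to 4.04% in CDS beta cells, and 0.0557% to 1.65% and 0.954% to 4.28% in delta cells. These intervals overlap in each library, but overlap is not a test of a difference. In the test on summed UMIs Higd1a was lower in delta than in beta cells, on few delta UMIs (log2 -1.20, with -0.32 in the saline and -1.80 in the CDS library, edgeR adjusted p = 0.0040). A low level of free RNA could not be told apart from expression in either class. Thinning left out 32 saline and 51 CDS alpha cells, 213 and 310 beta cells and 26 and 39 delta cells with fewer UMIs.

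The 2 related mitophagy receptors, which mark mitochondria for removal, did not follow the same order. Bnip3 (chr7:138890836-138909519, minus strand) was at 183 CPM in saline and 431 CPM in CDS beta cells. It was lower in alpha cells, at 73.9 and 129 CPM (log2 -1.55, edgeR adjusted p = 3.9e-08), and in delta cells, at 77.8 and 135 CPM (log2 -1.48, edgeR adjusted p = 1.1e-07). In endothelial cells it was at 121 and 263 CPM (log2 -0.56). Bnip3l stood at 103 and 188 CPM in beta cells, 206 and 391 in endothelial cells (log2 1.13, edgeR adjusted p = 1.2e-06) and 151 and 256 in macrophages (fitted log2 0.89, and 0.50 with plain CPM). Like Bnip3 it was lower in delta cells, at 83.2 and 105 CPM (log2 -0.60, edgeR adjusted p = 0.0022). Fam162a, a mitochondrial HIF target, stood at 112 and 312 CPM in beta cells, 56.6 and 92.6 in alpha cells (log2 -1.41, edgeR adjusted p = 2.0e-06) and 211 and 514 in endothelial cells (log2 0.91). Its level in delta cells was 79.9 and 124 CPM (log2 -0.95, edgeR adjusted p = 0.00018). Ak4, a mitochondrial adenylate kinase, was lower than in beta cells in alpha (log2 -0.65) and delta cells (log2 -1.63). All 5 mitochondrial genes were thus lower in delta than in beta cells, where 22.1% of all genes were.

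**Figure D2:**
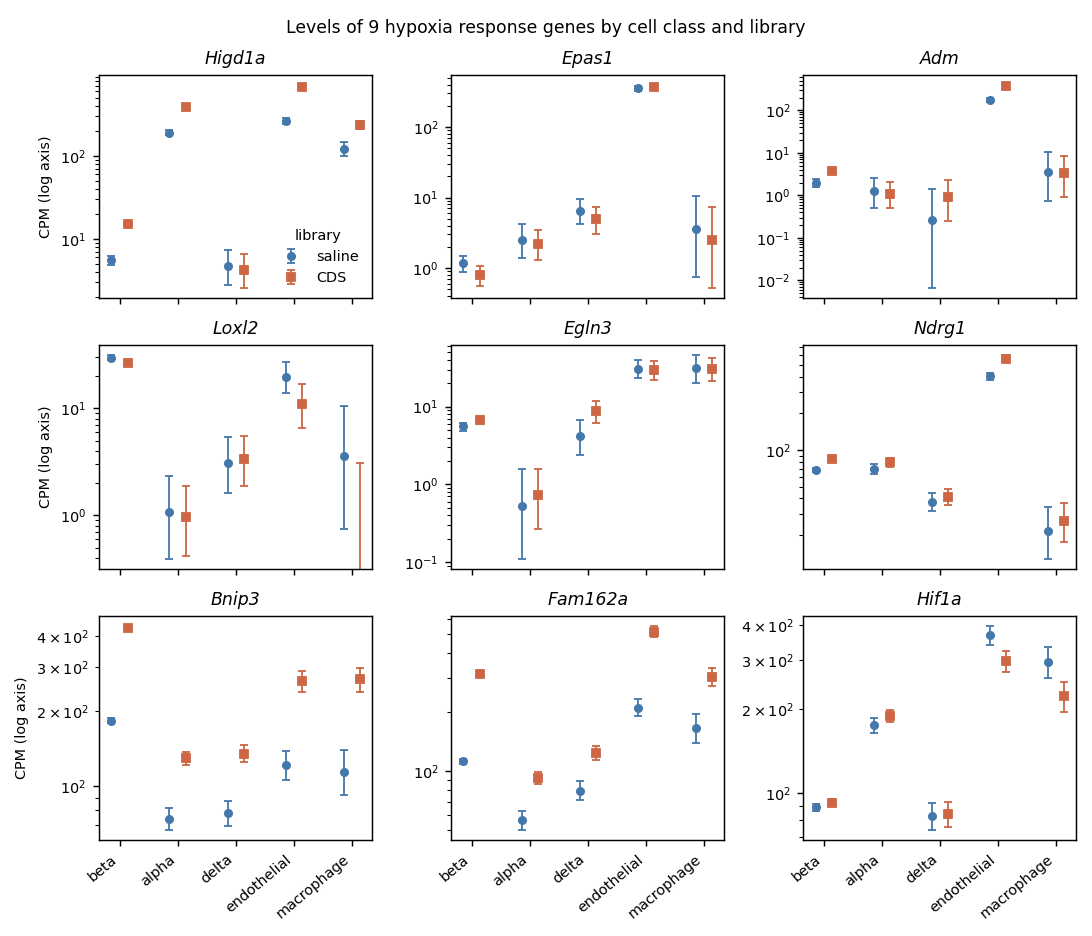
Levels of 9 genes in CPM (log axis, a separate range for each gene) by cell class in the saline (circles) and CDS (squares) libraries, with exact Poisson 95% intervals that cover counting error only. Higd1a is low in beta and delta cells and high in the other 3 classes, Epas1 and Adm stand high in endothelial cells, and Loxl2 is lower in alpha and delta than in beta cells. CDS macrophages held 0 UMIs of Loxl2, so only the upper end of that interval is drawn.

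Of 7 signalling, secreted and feedback genes tested, 6 were higher in endothelial than in beta cells and 0 lower, where 30.2% of all genes were higher and 39.4% lower. Adm encodes adrenomedullin, a vasodilator peptide. It was at 175 and 371 CPM in endothelial cells and 1.97 and 3.77 CPM in beta cells (log2 6.65, edgeR adjusted p = 1.9e-15), and the other 3 classes held 9 or fewer UMIs in a library. Ndrg1, a stress-induced protein, was at 403 and 562 CPM in endothelial cells, 68.3 and 84.1 in beta cells and 37.6 and 41.4 in delta cells. Its log2 fold was 2.75 in endothelial cells (edgeR adjusted p = 4.5e-12) and -0.97 in delta cells (edgeR adjusted p = 2.0e-05). The transcriptional repressor Bhlhe40 stood at 122 and 199 CPM in endothelial and 32.1 and 42.5 CPM in beta cells (log2 2.20, edgeR adjusted p = 3.1e-09). Ankrd37, an ankyrin repeat protein, was at 84.3 and 231 CPM in endothelial, 24.8 and 65.0 in beta and 10.2 and 24.6 in alpha cells (log2 1.91 and -1.36). Ddit4, an inhibitor of mTOR signalling, was at 66.1 and 95.4 CPM in beta cells and lower in alpha (23.9 and 32.3 CPM, log2 -1.53, edgeR adjusted p = 1.2e-08) and delta cells (22.0 and 31.1 CPM, log2 -1.61). Mxi1, an antagonist of MYC, was higher than in beta cells in alpha cells (log2 0.42), endothelial cells (log2 0.47) and macrophages (log2 1.07). Mif, the gene of a cytokine, was at 585 and 1693 CPM in beta, 260 and 670 in alpha and 339 and 678 in delta cells, with log2 folds of -1.27 and -1.08. Mif has near-identical copies elsewhere in the genome, so its counts are uncertain. Stc2, a secreted glycoprotein, had 61 and 77 UMIs in beta cells and 2 or fewer in each library of the other 4 classes.

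Chromatin and matrix enzymes also use oxygen as a substrate. The histone demethylase gene Kdm3a was at 118 and 124 CPM in endothelial and 51.2 and 51.7 CPM in beta cells (log2 1.33, edgeR adjusted p = 3.2e-08). Jmjd6, a lysyl hydroxylase, was at 118 and 199 CPM in endothelial and 43.2 and 82.2 CPM in beta cells (log2 1.46, edgeR adjusted p = 4.0e-08). Kdm4b, a related demethylase, was higher in endothelial cells by 0.37 on the log2 scale. Loxl2, which cross-links collagen, was lower in alpha and delta than in beta cells: it stood at 29.8 and 26.9 CPM in beta cells, with 6 and 8 UMIs in alpha and 12 and 15 in delta cells (log2 -4.79, edgeR adjusted p = 1.0e-09, and log2 -3.14, edgeR adjusted p = 8.3e-08). Insulin RNA, a measure of free beta cell RNA, was 1.44% to 1.82% of UMIs in the median alpha and delta cell, and the part of free RNA in these low counts was not tested. Plod2, a collagen lysyl hydroxylase, was at 69.9 and 98.1 CPM in endothelial and 2.71 and 3.92 CPM in beta cells (log2 4.76, edgeR adjusted p = 6.6e-12), with 1 and 2 UMIs in delta cells. The catalytic subunits of collagen prolyl hydroxylase differed. P4ha1 was at 115 and 170 CPM in beta and 139 and 197 CPM in delta cells, which did not pass the test (log2 0.22, edgeR adjusted p = 0.12), and P4ha2 at 43.7 and 68.0 against 30.6 and 41.6 CPM (log2 -0.63, edgeR adjusted p = 0.00034). Both were higher in endothelial cells (log2 0.67 and 0.85) and lower in alpha cells (log2 -0.60 and -1.05).

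Of the carbonic anhydrases, membrane enzymes that control acidity, Car9 had 5 or fewer UMIs and Car12 7 or fewer in any library of the 5 classes. Car9 passed the test in macrophages on 5 and 5 UMIs. Both glycogen genes were lower in alpha and delta cells. Gbe1, the branching enzyme, was at 106 and 92.9 CPM in beta and 35.0 and 33.0 CPM in alpha cells (log2 -1.55, edgeR adjusted p = 1.7e-08) and 58.6 and 45.9 CPM in delta cells (log2 -0.95). Ppp1r3c, which targets a phosphatase to glycogen, was at 4.76 and 4.83 CPM in beta cells, and no UMI was found in macrophages, which allows up to 3.59 CPM in saline and 2.52 CPM in CDS macrophages (3 counts). Narf was lower in delta cells (log2 -1.15) and higher in endothelial cells (log2 0.97), and Ankzf1, a gene of protein quality control, was lower in alpha cells (log2 -0.56).

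Other genes of the pathway were tested in the same fit, and their counts are read against the shares of all genes given above for each class. Of 21 genes of glycolysis and glucose uptake, 2 were higher and 12 lower in alpha than in beta cells, 2 and 13 in delta, 12 and 4 in endothelial cells and 16 and 3 in macrophages. Of 11 other HIF targets tested, 1 was higher and 7 lower in alpha cells, 1 and 6 in delta, 6 and 3 in endothelial cells and 6 and 3 in macrophages. Of 12 genes of the HIF machinery, 4 were higher and 7 lower in alpha cells, 1 and 3 in delta, 4 and 3 in endothelial cells and 3 and 3 in macrophages. This list held cofactors, ubiquitin ligase parts and the HIF subunit genes Hif3a and Arnt2, both among the 4 higher in alpha cells. It also held Pkm, which is counted among the glycolysis genes too. In endothelial cells the 33.3% of machinery genes that were higher lay near the 30.2% of all genes, as did the 25% in macrophages near 25.8%. Of the glycolysis genes 57.1% were higher in endothelial cells and 76.2% in macrophages, and 57.1% were lower in alpha cells (27.5% of all genes).

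Between the libraries, the RNA of 7 of the 17 genes measured in all 5 classes was higher in the CDS library in each of them, where 7.76% of the 4881 genes measured in all 5 classes were. The RNA of the HIF subunits of the set (Hif1a, Epas1 and Arnt) was higher in none. With 1 library per group there is no test and no replicate check. A gene counts here as higher if its CDS level was at least 25% above the saline level, and as lower if it was at least 20% below it, each with an exact 95% Poisson interval of the ratio that excluded 1. It counts as measured if the libraries together held 50 UMIs or more and neither was at 0. In beta cells 17 of 32 measured genes were higher and 1 lower, where 27.8% of all 15250 measured genes were higher and 18.5% lower. In alpha cells 13 of 26 were higher and 0 lower (19.3% and 11.5% of all genes), in delta cells 12 of 25 and 1 (15.6% and 12.7%), in endothelial cells 16 of 29 and 2 (19.3% and 12.9%) and in macrophages 9 of 19 and 2 (17.6% and 11.1%). The median log2 ratio of the measured genes was 0.41 in beta, 0.44 in alpha, 0.33 in delta, 0.48 in endothelial cells and 0.50 in macrophages, against 0.01 to 0.07 for all genes. Adjustment for gene length, described below, lowered the median of the set in each class. These classes come from the same 2 libraries and are not independent of each other. The count in beta cells moved with the scaling: with plain CPM 11 genes were higher and 4 lower, against 15.1% and 35.0% of all genes. In beta cells the step from TMM to plain CPM lowered the median of all genes from 0.06 to -0.18 on the log2 scale.

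All 5 mitochondrial genes were higher in CDS beta cells, where 27.8% of all genes were. Bnip3 had 9110 UMIs in the saline and 20260 UMIs in the CDS beta cells, a ratio of 2.36 (95% interval 2.30 to 2.42). Fam162a had a ratio of 2.78 (2.69 to 2.87), Higd1a 2.76 (2.40 to 3.18), Ak4 2.13 (1.93 to 2.36) and Bnip3l 1.84 (1.77 to 1.90). Bnip3 was also higher in alpha (1.75), delta (1.73) and endothelial cells (2.17) and macrophages (2.35). Higd1a was higher by 2.02 in alpha cells, 2.58 in endothelial cells and 1.94 in macrophages, and delta cells held 18 and 19 UMIs of it.

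Of the oxygen sensors, Egln1 was higher, with 4362 and 8574 UMIs in beta cells and a ratio of 2.08 (2.01 to 2.16). Its ratio was 1.55 in alpha, 1.34 in delta and 1.61 in endothelial cells and 1.86 in macrophages. Egln2 was just over the limit in beta cells at 1.27 and in no other class. Egln3 passed the limits in delta cells, at 2.10 with an interval of 1.15 to 4.03. Vhl passed in alpha cells at 1.41 (1.10 to 1.81). Its ratio was 1.43 in endothelial cells (0.958 to 2.16) and 1.58 in macrophages (0.855 to 3.05), where few UMIs left wide intervals, and differences between classes were not tested. Hif1an was higher in no class. The transcription factors were not higher in any class. Hif1a had a ratio of 1.04 in beta cells (0.997 to 1.08), 1.08 in alpha, 1.01 in delta and 0.809 in endothelial cells, and was lower in macrophages at 0.754 (0.631 to 0.900). Arnt, a long gene (62.9 kb), was the 1 gene lower in beta cells, at 0.775 (0.739 to 0.811), a call that was lost after adjustment for gene length (log2 -0.37 before and -0.20 after). It was lower in macrophages too, at 0.593 (0.405 to 0.865). Epas1 had a ratio of 1.05 in endothelial cells, with 661 and 643 UMIs.

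Signalling genes split. Mif had 29124 and 79514 UMIs in beta cells, a ratio of 2.90 (2.86 to 2.93), and was higher in all 5 classes, as was Ankrd37, at 2.62 in beta cells (2.45 to 2.80). Adm was higher in both classes where it was measured, at 1.92 in beta cells (98 and 177 UMIs) and 2.12 in endothelial cells (328 and 647 UMIs). Ddit4 was at 1.44 in beta cells, and higher in 4 of 5 classes. Bhlhe40 was higher in beta (1.33) and endothelial cells (1.63) and Ndrg1 in endothelial cells (1.39), where Ndrg1 in beta cells stayed just under the limit at 1.23. Mxi1 was higher in no class, at 0.997 in beta cells. Among the chromatin enzymes Jmjd6 was higher in all 5 classes, at 1.90 in beta cells (1.80 to 2.01), whereas Kdm3a and Kdm4b had ratios of 1.01 and 1.02 in beta cells and passed in no class. Of the matrix enzymes P4ha1 (1.47), P4ha2 (1.56) and Plod2 (1.45) were higher in beta cells, and Loxl2 was lower in endothelial cells on 37 and 19 UMIs (0.552). Gbe1 was at 0.878 in beta cells and lower in delta (0.783) and endothelial cells (0.668), and Ppp1r3c was at 1.02 in beta cells. Narf was higher in endothelial cells (1.85) and Ankzf1 in beta cells (1.37). In all, 7 genes were higher in all 5 classes, namely Egln1, Bnip3, Bnip3l, Fam162a, Ankrd37, Mif and Jmjd6, and no gene was higher in 1 class and lower in another. Adjustment for gene length, described next, took 3 of the 7 under the limit of 25% in some class: Mif in macrophages (log2 0.04), Jmjd6 in alpha (0.11) and delta cells (0.26) and Bnip3l in delta cells (0.25).

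**Figure D3:**
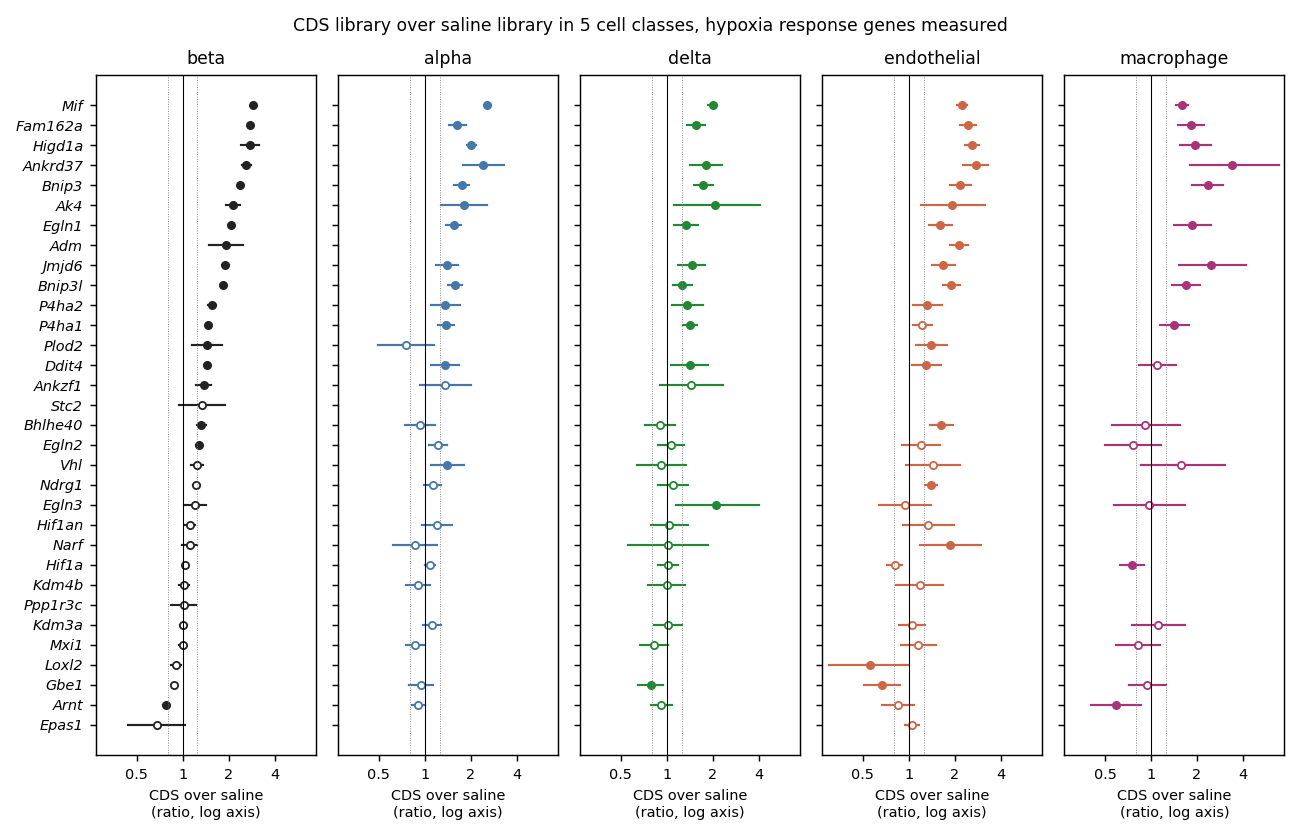
Ratio of CDS to saline levels for each measured gene in 5 classes (log axis), ordered by the beta cell value, with exact 95% Poisson intervals that cover counting error only. Filled points passed the limits of 25% higher or 20% lower (dotted lines) with an interval that excludes 1. The upper genes from Mif (2.90 in beta cells) to Bnip3l (1.84) are filled in every class that has a point, and Hif1a is open in beta, alpha, delta and endothelial cells.

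Gene length moved with the ratio. In beta cells the median log2 ratio of all genes was 0.50 in the shortest 20% (median span 3.83 kb) and -0.35 in the longest 20% (median span 130 kb). After the running median of genes of similar length was subtracted, 14 of the 32 genes were higher in beta cells and 2 lower by the same limits without the interval, where 17.9% of all genes were higher and 17.9% lower. The adjusted log2 ratio was 1.42 for Fam162a, 1.18 for Ak4, 1.16 for Higd1a, 1.12 for Egln1, 1.06 for both Bnip3 and Ankrd37, 0.81 for Mif and 0.79 for Bnip3l. The 2 lower genes were Epas1 (-0.38) and Ppp1r3c (-0.41), and Arnt at -0.20 no longer counted as lower. Of the short genes Ddit4 (2.17 kb) went to -0.024 and Bhlhe40 (6.30 kb) to 0.00. The counts of higher and lower genes became 10 and 2 of 26 in alpha cells (12.7% and 13.5% of all genes), 9 and 2 of 25 in delta (12.6% and 13.6%), 17 and 1 of 29 in endothelial cells (15.1% and 18.3%) and 8 and 5 of 19 in macrophages (20.7% and 21.1%). The median log2 ratio of the set became 0.20 in beta, 0.20 in alpha, 0.18 in delta, 0.35 in endothelial cells and 0.23 in macrophages. The adjustment itself brings the median of all genes to about 0. In all 5 classes 5 of 17 were higher after the adjustment, namely Egln1, Bnip3, Fam162a, Ankrd37 and P4ha1, where 2.95% of all genes were.

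**Figure D4:**
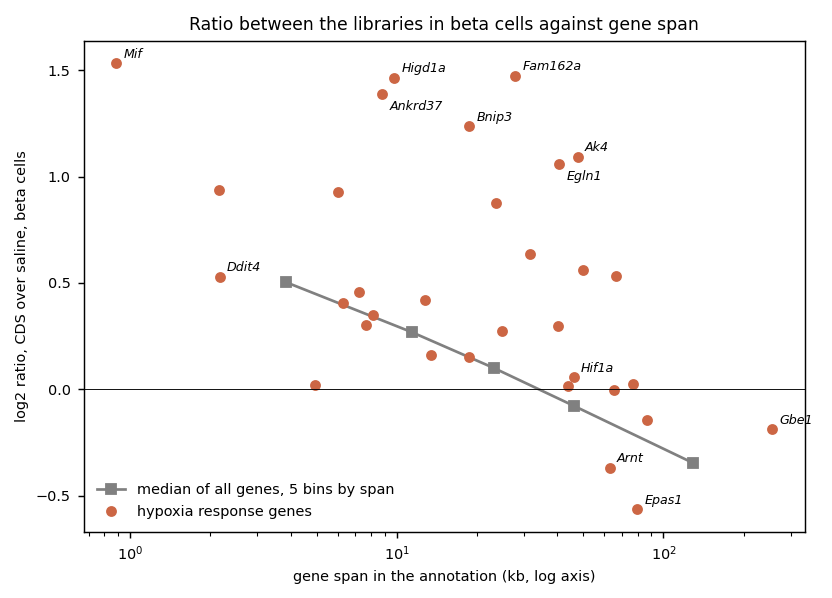
Log2 ratio of CDS to saline in beta cells against the annotated span of the gene in kb (log axis), for the hypoxia response genes measured (circles) and for the median of all genes in 5 bins of span (squares). The medians fall from 0.50 to -0.35, and Fam162a, Ak4, Egln1, Bnip3, Higd1a and Ankrd37 lie well above them, while Ddit4 lies on the trend.

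The rest of the pathway was measured in the same beta cells, where 27.8% of all genes were higher and 18.5% lower. Of 21 genes of glycolysis and glucose uptake 16 were higher and 1 lower, with a median log2 ratio of 0.79, or 0.67 after the length adjustment. At 20 CPM or more the highest were Tpi1 (2.33), Aldoc (2.29), Ldha (2.23), Pgam1 (2.09), the glucose transporter gene Slc2a1 (1.98) and Pgk1 (1.95). Of 11 other targets measured 7 were higher and 0 lower, among them Hilpda (2.76), Hmox1 (2.32) and Ero1l (1.61), and Vegfa was at 1.27. The median log2 ratio of these 11 was 0.46, or 0.17 after the length adjustment. Of 12 machinery genes 5 (41.7%) were higher and 1 lower, with a median log2 ratio of 0.30, or 0.03 after the length adjustment. Elob, Rbx1 and Eloc, which are short ubiquitin ligase subunits, had ratios of 2.52, 2.49 and 1.95, and Arnt2 was lower at 0.681. Other lists also differed between the libraries in beta cells, and their part in the result was not tested. Both metallothionein genes were higher (summed level 2595 and 8394 CPM), 5 of 14 integrated stress response genes (35.7%, near the share of all genes) were higher and 1 lower (2503 and 3549 CPM), and 11 of 18 (61.1%) dissociation and heat shock genes were higher and 1 lower (3887 and 4885 CPM). In that order the median log2 ratios of these lists were 1.52, 0.26 and 0.43, or 0.80, 0.11 and 0.05 after the length adjustment. Marker RNA of other cells in the beta sums also moved: the summed T cell list went from 9.52 to 0.830 CPM with 6 of 6 measured markers lower, the B cell list from 17.6 to 9.92, the plasma cell list from 180 to 23.8, the macrophage list from 31.3 to 50.5 and the endothelial list from 21.6 to 20.8, with no endothelial, macrophage, B or T marker at 0 in both libraries. The summed level of the 34 genes went from 2069 to 4047 CPM.

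Among beta cells of 1 library, the summed hypoxia response RNA varied from cell to cell. The counts of Mif, Bnip3 and Fam162a had the highest correlations. The median pair had a correlation near 0, but low counts per cell pull such values towards 0. Every beta cell was thinned to 3000 UMIs outside the hormone, digestive enzyme and mitochondrially encoded genes. The thinned values carry no TMM scaling. A saline beta cell held a median of 5 UMIs of the 34 genes together (2 at the 10th and 13 at the 90th percentile), and a CDS beta cell 8 (3 and 23). The share of cells above 13 UMIs was 9.67% in the saline library (exact 95% interval 8.84% to 10.5%) and 29.9% in the CDS library (28.4% to 31.5%). Without Mif, which gives the most UMIs of the set, the share above the saline 90th percentile of 9 UMIs was 8.80% and 20.2%. The 2 distributions overlapped over most of their range.

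At this depth a variance more than 25% above the mean was found in few of the genes. For a gene whose count follows sampling alone the variance over cells equals the mean, and the median of all genes was 1.03 in both libraries. The variance over mean was 2.96 in saline and 4.42 in CDS beta cells for Mif, 2.03 and 2.31 for Bnip3, 1.59 and 1.93 for Fam162a and 1.22 and 1.45 for Egln1. It was 1.12 and 1.06 for Hif1a and 1.06 and 1.06 for Arnt. A gene with few UMIs per cell stays near 1 on this measure even if it varies, so a low value does not show even expression. In saline beta cells Ak4 was at 1.12 with a mean of 0.036 UMIs per cell, and Higd1a at 1.16 with a mean of 0.017. Of the genes with enough UMIs, 3 of 28 in the saline and 7 of 30 in the CDS library had a variance more than 25% above the mean, where 5.99% and 6.01% of all genes did. These shares cover all genes with a mean of at least 0.01 UMIs and are not matched on the mean. Over 4706 saline and 3299 CDS beta cells, the counts of Bnip3 and Mif had a Pearson r of 0.49 and 0.54, Fam162a and Mif 0.41 and 0.51, and Bnip3 and Fam162a 0.40 and 0.44. The median was 0.02 and 0.03 over the 136 and 153 pairs of genes with a mean of at least 0.1 UMIs. Counting noise lowers the correlation of genes with few UMIs, so these medians do not show that the other genes vary apart. These are descriptions over cells that share a library.

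Cells ranked by the set also held more of the RNA of genes outside it. The 10% of beta cells with the highest summed count were compared with the other beta cells of their library, on genes that took no part in the ranking. Of the other pathway genes 23 of 35 were higher and 0 lower in the saline library, where 9.23% of all genes were higher and 11.2% lower, and 22 of 36 were higher and 2 lower in the CDS library (7.40% and 16.6%). With Mif left out of the ranking, 22 of 35 were higher and 0 lower in saline (8.49% and 9.82% of all genes) and 21 of 36 and 1 in CDS (7.08% and 12.7%). Ldha, the lactate dehydrogenase subunit that is low in normal beta cells, was 9.86-fold higher in saline and 6.17-fold in CDS top cells. Slc2a1 was 6.17-fold and 5.63-fold higher, the heme oxygenase gene Hmox1 6.63-fold and 6.35-fold, Ero1l 5.53-fold and 4.28-fold, Pgk1 3.61-fold and 2.35-fold and Vegfa 1.73-fold and 1.33-fold. Tfrc, the transferrin receptor gene, was at 0.97 and 0.94. Each gene of the set with at least 50 UMIs after thinning in a library was also compared between cells ranked by the sum of the other genes of the set. There Ak4 was 8.68-fold and 2.83-fold higher in the top cells, Higd1a 7.15-fold and 4.03-fold, Bnip3 5.36-fold and 3.55-fold, Fam162a 4.91-fold and 3.77-fold, Ankrd37 3.76-fold and 2.59-fold, P4ha2 3.66-fold and 2.61-fold and Egln1 3.52-fold and 3.03-fold. The ratio was 1.26 and 1.03 for Hif1a, 1.04 and 0.57 for Arnt and 0.92 and 0.89 for Gbe1. The top cells of the summed set had a similar depth before thinning (median 9649 against 9196 UMIs in saline, 15341 against 14850 in CDS). They held a somewhat lower insulin share (32.9% against 34.7%, and 38.8% against 40.3%) and more metallothionein RNA (11067 against 1960 CPM in saline, 23436 against 5975 CPM in CDS).

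**Figure D5:**
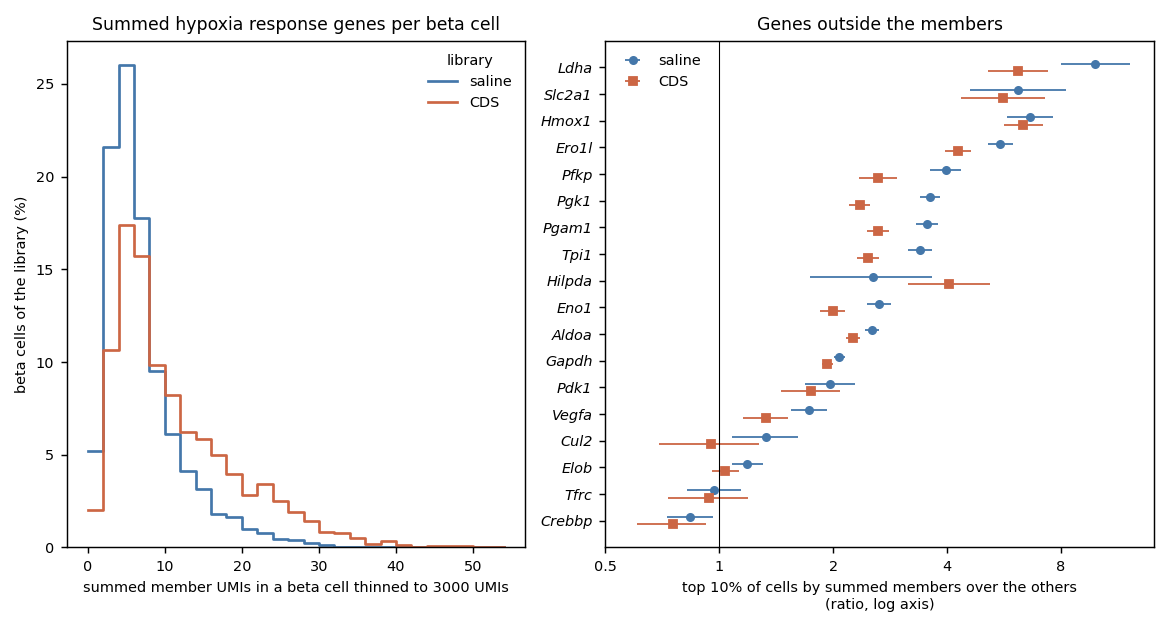
Left, percent of beta cells of each library by the summed UMIs of the 34 genes after thinning to 3000 UMIs per cell, in bins of 2. Right, ratio of 18 pathway genes outside the set between the top 10% of beta cells by that sum and the other beta cells (log axis), with 95% Poisson intervals that cover counting error only. The CDS distribution has the longer upper tail (29.9% against 9.67% of cells above 13 UMIs), and Ldha, Slc2a1, Hmox1 and Ero1l have ratios above 4 in both libraries.

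Beta cells were also ranked by other RNA. Of the 27 or 28 genes of the set measured, 14 to 20 were higher in the cells richest in either of 2 stress lists, where 7.76% to 9.90% of all genes were. In the 10% of beta cells richest in integrated stress response RNA, 15 of 28 genes of the set were higher and 1 lower in the saline library (9.67% and 11.7% of all genes), and 14 of 27 and 1 in the CDS library (7.76% and 15.8%). There Bnip3 was 2.95-fold and 2.82-fold, Fam162a 2.70-fold and 2.71-fold, Ak4 2.97-fold and 2.62-fold and P4ha2 2.58-fold and 2.13-fold higher. In the 10% richest in metallothionein RNA, 20 of 28 were higher and 2 lower in saline (9.90% and 12.6% of all genes) and 15 of 27 and 1 in CDS (8.50% and 19.2%). Higd1a was 5.81-fold and 3.32-fold, Ak4 5.62-fold and 2.28-fold, Bnip3 4.31-fold and 3.22-fold and Ankrd37 3.35-fold and 2.45-fold higher there. In the 10% with the highest insulin RNA share, 0 of 28 were higher and 3 lower in saline (5.67% and 9.52% of all genes) and 0 of 27 and 2 in CDS (6.17% and 17.1%). The higher counts of 0 are near these small shares of all genes, and they were not 0 in every setting (given below). These 2 stress measures are not independent, and the cells richest in integrated stress response RNA held 7734 CPM of metallothionein RNA against 2331 CPM in the other saline beta cells.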

How the data were processed

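The authors deposited unnormalized UMI counts for each gene and barcode. Cell Ranger 7.1, Seurat 4, edgeR (no version) and build mm10 are named per the submitters' processing notes, and the header of the files gives cellranger 7.1.0. Whether intron reads were counted is not given in the sources used here, and the chemistry is uncertain, since the labels' protocol names v3.1 in 1 place and v2 in another. The 34 genes and all lists were chosen with earlier results of these data known.

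Barcodes with at least 500 genes, 1000 UMIs and at most 20% mitochondrial UMIs were kept, and Scrublet doublets (Scanpy 1.11.5) removed. Cells were gated on hormone RNA (insulin at least 15% of UMIs, glucagon 2%, somatostatin 1%) or on at least 4 endothelial or macrophage markers with little hormone RNA, and compared with Leiden clusters (leidenalg 0.10.2, igraph 0.11.9). Class sums were tested with edgeR 4.0.16 (glmQLFit and glmQLFTest, TMM, Benjamini-Hochberg adjustment, threshold 0.05, 4 residual degrees of freedom); the test and the ratio script were checked on simulated data. Nothing states that the libraries come from separate mice. With the library term taking out their overall difference, the p-values measure only how class differences vary between these 2 libraries. Intervals cover counting error only. Positions and spans were taken from GENCODE for mm10, where 32235 of 32285 gene IDs were found. Named genes: all 34 are accounted for, those under 50 UMIs in a class by count, and from other lists up to 6 with the largest ratio at 20 CPM or more. Python 3.11.15, SciPy 1.17.1, R 4.3.3 and matplotlib 3.10.9 were used. Thinned counts were scaled to CPM without TMM. Alternatives covered the scaling (DESeq2 1.42.0 median-of-ratios or none), cell and gene filters, doublets, gates, clusters, thinning, DESeq2's test, the library term and gene length.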

Additional observations from a re-analysis of the deposited data

How the results depend on the processing

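For CDS against saline no paired analysis was possible because each group is 1 library. The tests of classes against beta cells pair the sums of a library through the library term. In the tests of classes against beta cells, each library taken alone gave the direction of the fit for every called gene with UMIs in both classes. The fit without the library term, which called fewer of all genes too, gave 4 genes higher and 6 lower in alpha cells, 8 lower in delta, 0 lower in endothelial cells and 8 higher in macrophages. Plain CPM gave 9 higher and 11 lower in macrophages (19.5% and 46.8% of all genes). Median-of-ratios factors gave 2 higher in delta cells (3282 of all 14974 genes), and no filter on low counts gave 5 lower in endothelial cells (6562 of 25255). Egln1 in macrophages turned to -0.037 with plain CPM. The other alternatives for these counts, DESeq2's test among them, stayed within 1.5 times.

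For CDS over saline, counts of higher genes were 11 of 32 in beta cells with plain CPM (15.1% of all genes). With limits of 1.5 they were 11 of 32 in beta (2309 of all 15250 genes), 8 of 26 in alpha (1101 of 11709) and 6 of 25 in delta cells (724 of 10974). With cells thinned to 1 depth they were 8 of 23 measured in alpha (14.4% of all genes), 6 of 19 in delta (12.4%) and 10 of 23 in endothelial cells (14.5%). Counts of lower genes are small and moved easily. In beta cells they were 4 of 32 with plain CPM (5340 of all 15250 genes) and 0 with limits of 1.5 (1383 of 15250). They were 2 after the length adjustment (2733 of 15245), with the stricter cell filter (2814 of 15281), with doublets kept (2812 of 15327) and with the mean over cells (3312 of 15250). In alpha cells they were 2 of 26 after the length adjustment (1577 of all 11706 genes), 1 of 23 when thinned (1189 of 9571) and 2 of 26 with the mean over cells (1898 of 11709). In delta cells they were 2 with plain CPM (2132 of all 10974 genes), the length adjustment (1490 of 10974), Leiden clusters (1627 of 11459) and the mean over cells (2151 of 10974). They were 0 with limits of 1.5 (478 of 10974) and with doublets kept (1352 of 11031). In endothelial cells they were 4 of 29 with plain CPM (1608 of all 7945 genes). They were 1 with limits of 1.5 (639 of 7945), the length adjustment (1450 of 7945), the stricter cell filter (1015 of 7983), doublets kept (1028 of 8028) and thinning (606 of 5490). In macrophages they were 1 of 19 with limits of 1.5 (412 of all 5820 genes) and 5 of 19 after the length adjustment (1228 of 5820). The length adjustment turned the log2 ratio of Ddit4 to -0.024 in beta, -0.13 in alpha and -0.090 in endothelial cells and that of Gbe1 to 0.043 in delta cells. Among beta cells, deeper thinning to 9106 UMIs changed the counts in the cells with the highest insulin share of the CDS library. There 4 of 30 genes were lower (16.9% of all genes) and 2 higher (6.38%). With doublets kept 3 of 27 were higher in these CDS cells (6.30%), and the top 20% of saline beta cells gave 1 of 28 higher (4.66%). Ranking beta cells without Mif, an alternative chosen after seeing the data, left 22 of 35 other pathway genes higher in saline and 21 of 36 in CDS. The causes of these shifts were not tested. Macrophages and endothelial cells were few, and genes under 50 UMIs in a class cannot be compared between libraries at this depth.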

Other observations

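Classes with fewer than 100 cells in a library entered no comparison, and their levels are unscaled between libraries. Stromal cells (87 saline and 26 CDS) held the matrix genes of the set: Loxl2 stood at 194 CPM in the saline library (166 UMIs), Plod2 at 144 CPM (123 UMIs), P4ha1 at 231 CPM (198 UMIs) and Epas1 at 207 CPM (177 UMIs). T cells of the saline library (1285 cells) had Hif1a at 489 CPM on 1608 UMIs, and B cells (1070 cells) at 150 CPM on 339 UMIs. PP cells (163 saline and 85 CDS) had Hif1a at 163 and 127 CPM, Bnip3 at 105 and 128 CPM and Higd1a at 21.6 and 39.6 CPM, between the values of beta and alpha cells for Higd1a.

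Car9, which had 5 or fewer UMIs in each library of the 5 classes compared, had 77 UMIs in the 65 acinar cells of the saline library (223 CPM). Of these 77 UMIs 50% lay in 3 cells, and the 41 acinar cells of the CDS library held 4. Hif1a of the same saline acinar cells was also held by few cells, with 50% of 188 UMIs in 3 cells.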
